A study of Macaca mulatta with 8 samples.

Results

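CXCL9, CXCL10 and CXCL11 are 3 neighbouring chemokine genes, and CXCR3 encodes the receptor that they share. These 4 genes, out of 26533 features in the count tables, were chosen by symbol to see which retinal cells made the ligands and which carried the receptor after subretinal gene therapy. Single-cell RNA sequencing of dissociated retina from 2 male macaques gave 8 libraries. NHP1 (5 years old) contributed a library from each eye that the labels call uninjected, although this animal received AAV2-CAG-hRPE65 in both eyes and its left library held UMIs of the huRPE65 transgene. NHP2 (6 years old) had 3 areas sampled per eye: retina outside any injection, and the blebs made with AAV8-GRK1-hRPGR and with AAV8-GRK1-mScarlet, a bleb being the patch of retina lifted by the injected vector. The GRK1 promoter drives expression in photoreceptors, hRPGR is a human coding sequence, and mScarlet is a red fluorescent reporter that was given at a lower dose than hRPGR. By the study's methods every eye, the uninjected areas included, received triamcinolone, a corticosteroid, and the left eyes also received adalimumab, an antibody against TNF. All 6 NHP2 libraries were areas of a single animal, 2 libraries per group with 1 from each eye. Every p-value below between areas thus measures only the spread between areas of these 2 eyes, and the drug and the eye cannot be told apart. P-values for cells with against cells without a member compare sums of cells inside the same bleb libraries. They do not measure spread between areas or animals. The right uninjected library held coRPGR transgene UMIs, which goes against its label, and counts of called list genes are also given without it.

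Chemokines are small secreted proteins that guide leukocytes along concentration gradients. CXCL9, CXCL10 and CXCL11 are CXC chemokines without the ELR motif that are induced by interferons, CXCL9 mainly by interferon gamma and CXCL10 and CXCL11 by several interferons. Their receptor CXCR3 is a G protein-coupled receptor of activated T cells, natural killer cells and some B-lineage cells, and its engagement draws these cells towards the source of the ligands. In the retina, Müller glia span the tissue as its supporting cells, and microglia are its resident myeloid cells.

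The 3 ligand genes lay side by side on the plus strand of chromosome 5 of Mmul_10 and together spanned 36095 bases. CXCL11 (ENSMMUG00000053130) ran from 57684576 to 57687032, CXCL10 (ENSMMUG00000020903) from 57698478 to 57699998, and CXCL9 (ENSMMUG00000043801) from 57711069 to 57720670. The gaps between them were 11445 and 11070 bases. CXCR3 (ENSMMUG00000032424) lay on the minus strand of chromosome X, from 68624847 to 68625943, in a model that RefSeq marks as partial. ART3, on the opposite strand, overlapped CXCL11 and CXCL10, but only 3 ART3 UMIs were found in Müller glia-like cells and 3 in myeloid-like cells of NHP2.

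The stretches before the ligand genes are shown because interferon-activated factors are known to act there. They were read from the RefSeq Mmul_10 genome on the plus strand, at chr5:57684276-57684575 for CXCL11, chr5:57698178-57698377 for CXCL10 and chr5:57714381-57714580 for CXCL9. Capitals mark matches to the motifs searched.
CXCL11: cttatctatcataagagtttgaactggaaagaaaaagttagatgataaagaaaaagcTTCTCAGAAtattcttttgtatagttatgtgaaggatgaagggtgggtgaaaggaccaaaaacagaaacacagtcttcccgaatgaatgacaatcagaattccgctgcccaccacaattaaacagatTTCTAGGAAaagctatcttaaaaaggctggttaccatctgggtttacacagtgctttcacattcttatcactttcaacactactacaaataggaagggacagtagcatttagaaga
CXCL10: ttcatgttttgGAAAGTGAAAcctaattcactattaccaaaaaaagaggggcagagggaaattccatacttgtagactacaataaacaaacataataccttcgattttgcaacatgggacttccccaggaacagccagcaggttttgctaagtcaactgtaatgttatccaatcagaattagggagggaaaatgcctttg
CXCL9: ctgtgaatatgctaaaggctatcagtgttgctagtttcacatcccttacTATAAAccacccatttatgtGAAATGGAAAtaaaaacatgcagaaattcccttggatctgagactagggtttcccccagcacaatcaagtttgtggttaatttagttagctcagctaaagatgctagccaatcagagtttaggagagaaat

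The motifs were the interferon gamma-activated site GAS (TTCNNNGAA), the core of the interferon-stimulated response element (ISRE, a pair of GAAA blocks spaced by 2 bases), the NF-kB site (GGG followed after 2 bases by TTTCC), the TATA box (TATAAA) and a T-box (TCACACCT), each sought on both strands of the 300 bases before the start of the transcript model. CXCL11 held 2 GAS matches, at positions -243 to -235 and -116 to -108 counted back from its start. CXCL10 held 1 ISRE core match at -289 to -280, and CXCL9 held 1 at -231 to -222 beside a TATA match at -251 to -246. The models of CXCL10 and CXCL9 start at the start codon, so for these genes positions count from there and the last 100 bases searched are not printed. The window of CXCL9 lies inside the annotated gene, before its curated transcript. No match to the NF-kB or T-box letters given above was found in these 3 windows. NF-kB sites that depart from these letters were not sought, so the windows can hold other forms of the site. Over 20782 windows before all genes, 7.16% held a GAS match, 3.71% an ISRE core match, 12.3% a TATA match, 1.60% an NF-kB match and 1.61% a T-box match, so single matches are common and describe letters only.

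Barcodes with at least 1500 UMIs (unique molecular identifiers, each counting 1 captured transcript) were taken as cells. After removal of cells with high doublet scores 83192 cells were left, from libraries of 90634306 to 146519011 UMIs. Cells were grouped by marker genes, and rod-like cells made up 27.2% to 70.8% of a library. Müller glia-like cells made up 5.19% to 11.2%, myeloid-like cells 0.314% to 5.54% and T/NK-like cells 0.0202% to 4.23%. In NHP2 there were 24 T/NK-like cells in the right uninjected area and 37 in the left, against 106 and 35 with hRPGR and 242 and 434 with mScarlet. Levels are given in CPM, the UMIs of a gene scaled to 1000000 UMIs of a class in a library. Shares are the percentage of cells with at least 1 UMI of the gene after each cell was thinned at random to 1500 UMIs. The levels of the 4 genes led to their choice and are a description without a test, and intervals given beside them are exact 95% intervals that cover counting error only.

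The ligands had 2 sources, and their balance differed between the genes and between the areas. In the blebs 71.2% of the 14347 CXCL10 UMIs found in cells came from Müller glia-like cells and 23.3% from myeloid-like cells. CXCL9 and CXCL11 summed over the 4 blebs were mostly myeloid, with 85.4% of 2462 UMIs and 71.5% of 1998 UMIs, and Müller glia-like cells gave 4.39% and 21.5%. For CXCL9 this did not hold in the left hRPGR bleb, where myeloid-like cells held 8.54% of 281 UMIs, Müller glia-like cells 22.8% and unnamed clusters 68.0%, against 93.5% to 96.4% myeloid in the other 3 blebs. In the uninjected areas of NHP2 the myeloid-like cells held nearly all ligand UMIs, namely 93.8% of 273 for CXCL10, 97.4% of 39 for CXCL11 and 90.9% of 11 for CXCL9. CXCR3 sat elsewhere: T/NK-like cells held 95.6% of its 45 UMIs in the uninjected areas and 64.5% of its 1571 UMIs in the blebs, with another 25.1% in B/plasma-like cells. A share of all UMIs moves with the number of cells as well as with the RNA in each, and fewer cells of a type and less RNA per cell are told apart only by the levels within a class that follow.

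**Figure D1:**
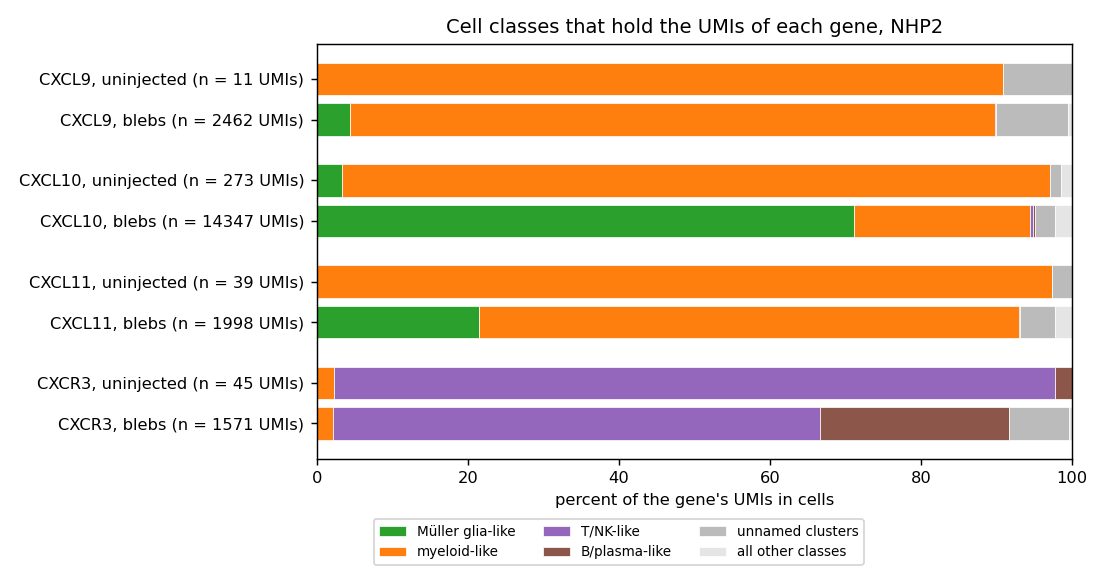
Percent of each gene's UMIs (horizontal axis) held by each cell class, for the 2 uninjected areas and the 4 blebs of NHP2; n is the number of UMIs in cells. CXCL10 was 93.8% myeloid-like in the uninjected areas and 71.2% Müller glia-like in the blebs, whereas CXCR3 was held mainly by T/NK-like cells in both.

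CXCL10 in Müller glia-like cells was near 0 outside the blebs and high within them. The uninjected areas of NHP2 had 0.427 CPM in the right eye (2 UMIs in 693 cells) and 0.805 CPM in the left (7 UMIs in 1228 cells), and the NHP1 libraries had 0 and 1.93 CPM. The hRPGR blebs had 152 CPM (right, interval 142 to 163) and 165 CPM (left, 155 to 176), and the mScarlet blebs had 895 CPM (right, 869 to 921) and 762 CPM (left, 738 to 786). All 4 blebs lay far above both uninjected areas, both mScarlet blebs lay above both hRPGR blebs, and within each vector the eyes were close over the class as a whole. The group means were 0.616 ± 0.267, 159 ± 9.47 and 828 ± 94.1 CPM (SD, n = 2 each), and the fitted log2 differences from the uninjected areas were 7.84 ± 0.24 for hRPGR and 10.16 ± 0.25 for mScarlet (SE).

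These levels came from a minority of cells. In the hRPGR blebs 3.54% (right) and 2.76% (left) of the thinned Müller glia-like cells had a CXCL10 UMI, and in the mScarlet blebs 6.24% and 12.5%. In the uninjected areas the shares were 0.144% and 0.163%, which are 1 and 2 cells. Without thinning the shares were 5.95%, 3.95%, 10.4% and 16.4% in the blebs and 0.289% and 0.244% outside. The left mScarlet bleb had about as high a level as the right one, from 150 against 73 positive cells before thinning. Their median was near the same, 5.5 CXCL10 UMIs in the left and 6 in the right. The richest cells had 560, 320 and 225 UMIs in the left bleb and 657, 406 and 406 in the right. Of the 3421 Müller glia-like cells of the blebs 310 had any CXCL10 UMI and 123 (3.60%) had at least 10, and the richest cell, in the right mScarlet bleb, had 657. Rod-like cells, which should lack the gene, gave the background: at most 0.496% of thinned cells and 2.61 CPM, with median depths of 4689 to 7354 UMIs against 3843 to 6218 UMIs in Müller glia-like cells. CXCL10 in free RNA, measured in barcodes of 100 to 1000 UMIs, was 1.11 and 1.40 CPM in the uninjected areas, 10.7 and 13.5 CPM in the hRPGR blebs, and 14.9 and 82.0 CPM in the mScarlet blebs, below the Müller glia-like level of every bleb.

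Müller glia-like cells fell into 4 clusters, and CXCL10 was not spread evenly over them. Clusters 19 and 23 held 60.8% and 37.8% of this class in the right hRPGR bleb, 47.7% and 51.8% in the right and 54.4% and 43.6% in the left mScarlet bleb, while clusters 18 and 30 held 53.9% and 36.5% of it in the left uninjected area and most of it in NHP1. The left hRPGR bleb held both kinds, 42.2% of its cells in cluster 18 and 22.4% in cluster 30 with 2.48 and 0.980 CPM of CXCL10, beside 23.3% in cluster 19 with 698 CPM and 12.1% in cluster 23 with 366 CPM. In the right hRPGR bleb these 2 clusters had 75.6 and 199 CPM, in the right mScarlet bleb 105 and 1062 CPM, and in the left mScarlet bleb 741 and 779 CPM. Within cluster 19 the left bleb of each vector thus lay above the right one, and the left hRPGR bleb lay above the right mScarlet bleb. In cluster 23 both mScarlet blebs lay above both hRPGR blebs. The richest cells of the left hRPGR bleb held 162 and 114 CXCL10 UMIs in cluster 19 and 177 in cluster 23, out of 917 in this class. Its level in cluster 19, and its place above the right blebs there, thus rest largely on a few cells. The right uninjected area, whose cells were 55.3% in cluster 19 and 44.3% in cluster 23, had only 1.62 and 0 CPM there. In the left uninjected area cluster 19 had 15.2 CPM in its 115 cells, and cluster 23 held only 3 cells, with no CXCL10 UMI. In both clusters each bleb had a higher CXCL10 level than the uninjected area of the same eye, although the comparison in cluster 23 of the left eye rests on those 3 cells.

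In myeloid-like cells CXCL10 was already present outside the blebs. The uninjected areas of NHP2 had 264 CPM (right, 146 UMIs in 84 cells) and 213 CPM (left, 110 UMIs in 81 cells), the hRPGR blebs 95.2 and 61.2 CPM, and the mScarlet blebs 298 and 344 CPM. Both hRPGR blebs lay below both uninjected areas and both mScarlet blebs above them, and these comparisons share the same uninjected libraries. A single cell held 77 of the 110 UMIs of the left uninjected area. The level there, and its place above the hRPGR blebs, thus rest largely on 1 cell. The thinned shares were 16.7% (interval 9.42 to 26.4) and 8.64% (3.55 to 17.0) of myeloid-like cells outside, 7.95% and 5.71% with hRPGR, and 17.6% and 19.2% with mScarlet, in the same order as the levels. Without thinning they were 26.2%, 11.1%, 15.9%, 15.7%, 31.7% and 39.0%, so that the hRPGR blebs lay between the uninjected areas. Myeloid-like cells were more numerous in the blebs, 390 and 140 with hRPGR and 489 and 433 with mScarlet. In NHP1, 40 UMIs, 38 of them in 1 cell, gave 61.2 CPM in the left eye, and the right eye had none in 31 cells.

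**Figure D2:**
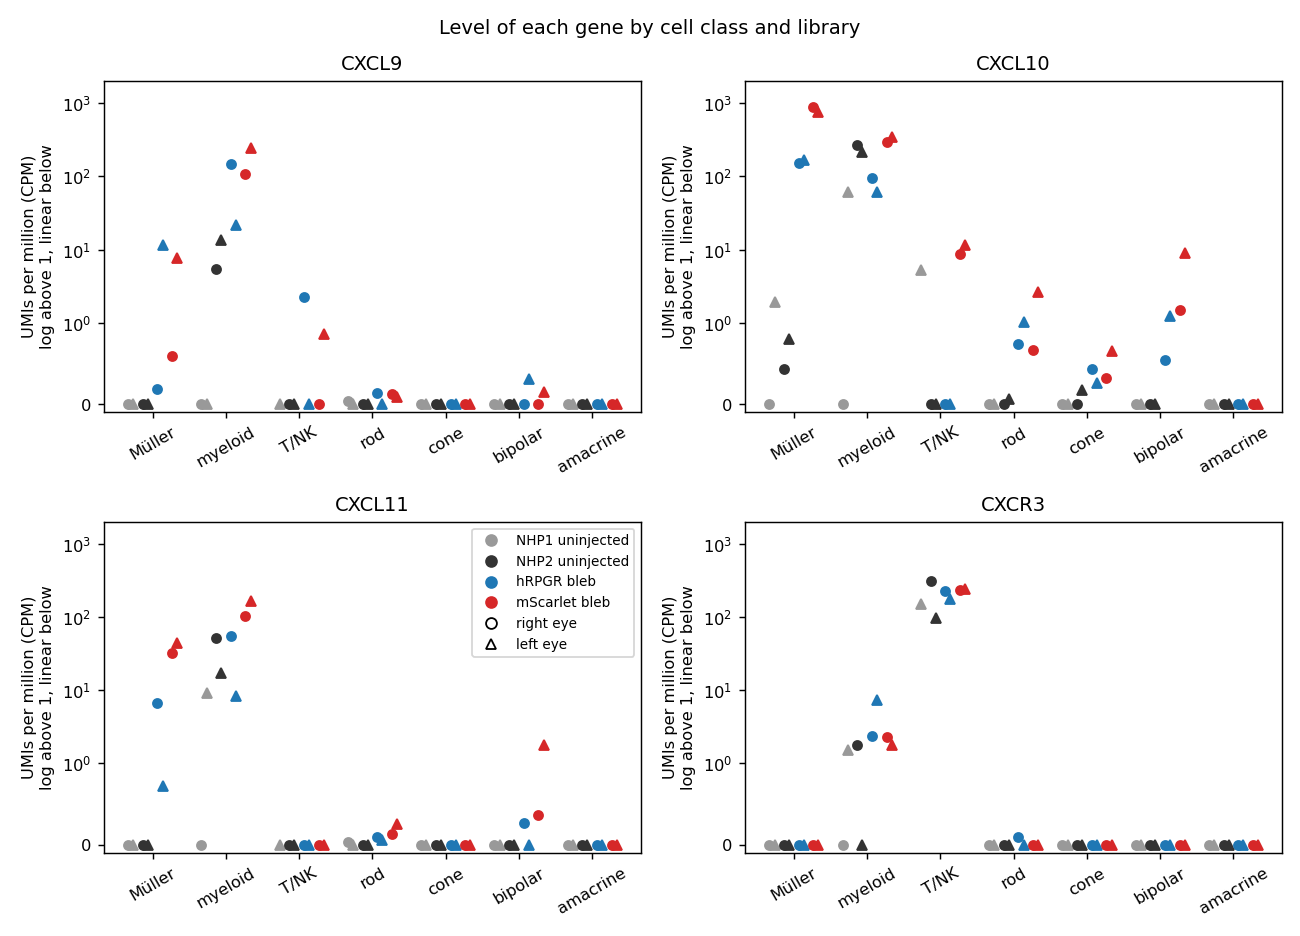
Level of CXCL9, CXCL10, CXCL11 and CXCR3 in CPM (vertical axis, logarithmic above 1 and linear below) in 7 cell classes; each point is 1 library with at least 20 cells of the class, coloured by group, with circles for right and triangles for left eyes. Müller glia-like CXCL10 separates the blebs from the uninjected areas, while myeloid-like CXCL10 is present in both.

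CXCL9 had the largest myeloid share of the ligands in 3 of the 4 blebs, all but the left hRPGR bleb. Myeloid-like cells of the uninjected areas had 3 UMIs (right, 5.43 CPM) and 7 UMIs (left, 13.5 CPM), the hRPGR blebs had 148 CPM (right) and 21.9 CPM (left), and the mScarlet blebs had 106 CPM (right) and 246 CPM (left). Each bleb lay above both uninjected areas, but the eyes of a vector were several fold apart and the vectors overlapped. A single myeloid-like cell held 230 of the CXCL9 UMIs of the right hRPGR bleb, 57.6% of that library, so this level rests largely on 1 cell. In the left hRPGR bleb 67.3% of the CXCL9 UMIs sat in 1 cell of cluster 53, an unnamed cluster led by TAGLN and RGS5. The thinned share of CXCL9-positive myeloid-like cells, which such cells move little, was 2.38% and 0% outside the blebs, 2.05% and 2.14% with hRPGR, and 4.91% and 9.01% with mScarlet. In Müller glia-like cells CXCL9 had no UMI in either uninjected area, and its pooled level was at least 26.8-fold higher in the hRPGR blebs and at least 18.7-fold higher in the mScarlet blebs against a floor of 3 counts over both uninjected areas. Nearly all of that came from the left eyes, with 11.5 and 7.77 CPM against 0.190 and 0.586 CPM in the right eyes. The right-eye levels lay below CXCL9 in free RNA of the same libraries, 0.690 and 1.04 CPM. In the left hRPGR bleb 6 Müller glia-like cells had CXCL9, the richest with 28 of 64 UMIs. In the left mScarlet bleb it was also 6 cells, the richest with 21 of 40 UMIs. Both folds thus rest on a few cells.

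CXCL11 had the fewest UMIs of the ligands summed over the 4 blebs, 1998 against 2462 for CXCL9. In the mScarlet blebs alone the 2 genes were level, with 1786 and 1782 UMIs. In myeloid-like cells the uninjected areas had 52.4 CPM (right) and 17.4 CPM (left), the hRPGR blebs 55.2 and 8.23 CPM, and the mScarlet blebs 104 and 163 CPM. Both mScarlet blebs lay above the other 4 areas, and the hRPGR blebs overlapped the uninjected areas. Müller glia-like cells had no CXCL11 UMI in either uninjected area, 6.65 and 0.721 CPM in the hRPGR blebs, and 32.4 and 43.7 CPM in the mScarlet blebs. Against the floor of 3 counts the pooled level was at least 16.1-fold higher with hRPGR, where 35 of the 39 UMIs came from the right bleb, and at least 170-fold higher with mScarlet. Of these 35 UMIs 31 sat in 1 cell, so the hRPGR level and its fold rest largely on that cell. In the right mScarlet bleb the cell with 657 CXCL10 UMIs was also the richest in CXCL11, with 121 of the 166 UMIs of this class, so the level there rests largely on 1 cell. In the left mScarlet bleb 1 Müller glia-like cell held 117 of the 225.

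In the mScarlet blebs the classes ranked, for CXCL10, as Müller glia-like (828 ± 94.1 CPM, n = 2), myeloid-like (321 ± 32.7), T/NK-like (10.2 ± 2.07), bipolar-like (5.23 ± 5.31), B/plasma-like (3.65 ± 4.5) and rod-like cells (1.64 ± 1.37). The steps from Müller glia-like to myeloid-like and from myeloid-like to T/NK-like cells were larger than the spread between eyes, whereas T/NK-like, bipolar-like, B/plasma-like and rod-like cells had overlapping or neighbouring ranges. For CXCL9 myeloid-like cells (176 ± 98.8 CPM) stood above Müller glia-like cells (4.18 ± 5.08), which overlapped T/NK-like cells (0.432 ± 0.610). For CXCL11 the order was myeloid-like (134 ± 41.7 CPM), Müller glia-like (38.1 ± 7.95), horizontal-like (5.31 ± 5.44) and bipolar-like cells (1.07 ± 0.989), of which the last pair overlapped. Amacrine-like cells had no ligand UMI in any bleb. The T/NK-like CXCL10 level of the mScarlet blebs, 8.73 and 11.7 CPM, lay below that of free RNA in the same libraries, and no UMI was seen in the 141 T/NK-like cells of the hRPGR blebs. RPE-like cells, from the pigment epithelium, held 36 CXCL10 UMIs in 13 cells of the right hRPGR bleb (730 CPM) and 5 in 26 cells of the left (35.4 CPM), too few cells to place in the order.

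Ligands were often found in the same cells when the 4 blebs were summed. After thinning, 17 bleb Müller glia-like cells had a CXCL11 UMI and 16 of them also had CXCL10, so CXCL11 was found in 7.48% of the CXCL10-positive cells and in 0.0312% of the others. In myeloid-like cells CXCL11 was found in 27.4% of the 208 CXCL10-positive cells and in 3.54% of the others, and CXCL9 in 12.5% and 3.86%. The right and left mScarlet blebs gave 86 and 83 of these 208 cells, and the hRPGR blebs, with 31 and 8, did not all show the same: in the left one CXCL11 was found in 0 of 8 CXCL10-positive cells and in 1.52% of the others, and in the right one CXCL9 was found in 3.23% of 31 and in 1.95%. In Müller glia-like cells of the left hRPGR bleb none of the 4 CXCL9-positive cells had CXCL10. Of the 101 CXCL11-positive myeloid-like cells 57 had CXCL10, which leaves many cells with a single ligand at this depth. Ligand and receptor were each rare in the class of the other, so their joint counts do not bear on whether they are apart within a class: 3 of 1452 myeloid-like cells had a CXCR3 UMI, 1 of them with a ligand, no Müller glia-like cell had one, and 8 of 817 T/NK-like cells had a ligand UMI, 1 of them with CXCR3.

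Myeloid-like cells were split by whether they had a UMI of a homeostatic microglia gene (P2RY12, CX3CR1, TMEM119, SALL1 or GPR34). CXCL10 was found in 15.3% (interval 12.7 to 18.2) of the 694 bleb cells with such a UMI and in 13.5% (11.1 to 16.1) of the 758 without. CXCL11 was found in 7.35% and 6.60%, and CXCL9 in 3.60% (2.34 to 5.27) and 6.46% (4.82 to 8.46). The intervals overlapped for every ligand, but they pool cells of 4 blebs and cover counting error only, so the overlap does not show that the sets are alike. By bleb the CXCL9 shares with and without such a UMI were 2.52% and 1.73% (right hRPGR), and 1.22% and 3.45% (left hRPGR). They were 3.23% and 6.64% in the right mScarlet bleb, and 5.85% and 11.8% in the left. The CXCL9 level was 71.2 CPM in the first and 249 CPM in the second set of cells. Of the 1647 CXCL9 UMIs of the second set 1121 came from the left mScarlet bleb, where the levels were 56.8 and 394 CPM, against 96.3 and 116 CPM in the right mScarlet bleb.

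CXCR3 was carried by T/NK-like cells in all NHP2 areas, and its share of these cells did not separate the groups. The thinned shares were 45.8% (11 of 24 cells, interval 25.6 to 67.2) and 16.2% (6 of 37, 6.19 to 32.0) in the uninjected areas, 30.2% (21.7 to 39.9) and 34.3% (19.1 to 52.2) with hRPGR, and 28.9% (23.3 to 35.1) and 32.7% (28.3 to 37.4) with mScarlet. The 4 bleb values lay between the 2 uninjected values, so the groups overlapped, and the left NHP1 library had 12.8% of 47 cells. The levels were 311 and 97.0 CPM, 226 and 176 CPM, and 232 and 240 CPM in the same order, with fitted log2 differences of 0.11 ± 0.44 for hRPGR and 0.35 ± 0.41 for mScarlet (SE). Without thinning the shares were 75%, 37.8%, 56.6%, 62.9%, 62.8% and 62.0%, at median depths of 3538.5 to 4996 UMIs. With classes taken from a marker score per cell instead of clusters the mean thinned shares were 7.56%, 9.63% and 23% (uninjected, hRPGR and mScarlet), so the lack of separation rests on the class rule. In rod-like cells, the background, CXCR3 reached at most 0.0368% of thinned cells. The mScarlet blebs held 1332 CXCR3 UMIs in all cells against 45 in the uninjected areas, and they also held more T/NK-like cells, while the level within these cells differed by less than its spread.

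Within T/NK-like cells of the blebs the receptor was spread over all subsets that could be drawn. It was found in 30.5% (25.5 to 36.0) of 311 cells with a CD8A or CD8B UMI and no CD4 UMI, in 34.9% (25.9 to 44.8) of 106 cells with the reverse, and in 31.1% (26.6 to 35.9) of 399 cells with neither. Cells with a UMI of the proliferation genes MKI67 or TOP2A had 34.4% (22.9 to 47.3) against 31.1% (27.8 to 34.5) without. B/plasma-like cells, led by JCHAIN and immunoglobulin genes, had 25.5 CPM in the right hRPGR bleb and 37.9 and 36.6 CPM in the mScarlet blebs, with thinned shares of 1.79%, 1.20% and 6.77%. Their unthinned shares of 27.7%, 48.2% and 47.8% went with median depths of 22055 to 27449 UMIs. Cluster 49, unnamed and led by CD74, MAMU-DRA and other antigen presentation genes with the B cell marker MS4A1, had 49.1, 39.2 and 84.7 CPM in the same 3 libraries. Müller glia-like cells had no CXCR3 UMI in any library.

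**Figure D3:**
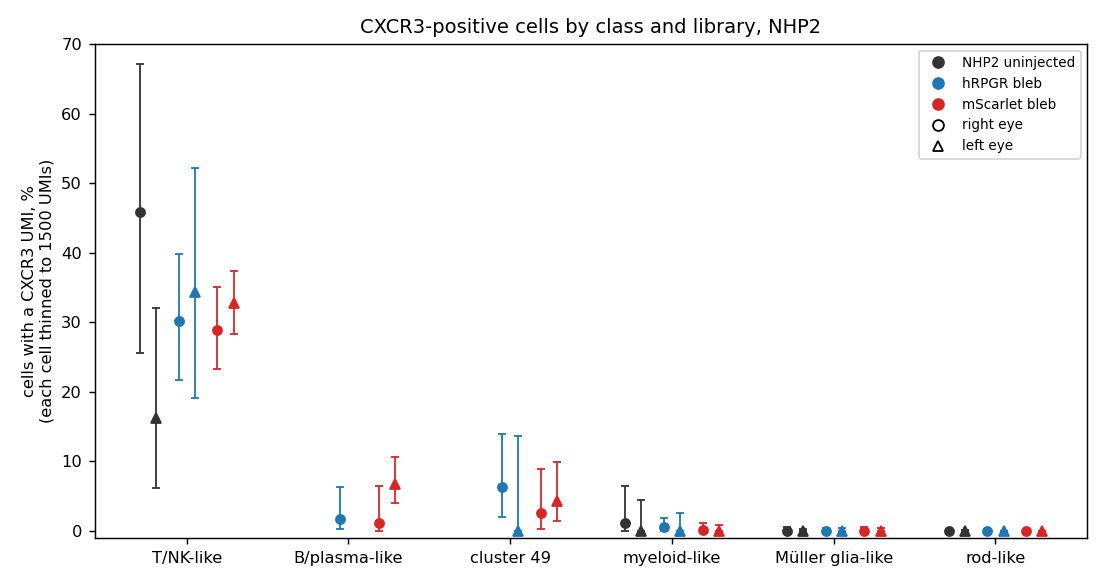
Percent of cells with a CXCR3 UMI after thinning each cell to 1500 UMIs (vertical axis) by class for the 6 NHP2 libraries; points are libraries with at least 20 cells of the class (cluster 49 included), circles right and triangles left eyes, and bars exact 95% intervals. T/NK-like cells lie between 16.2% and 45.8% in all 6 libraries, with overlapping intervals.

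Over 75 sums of a class in a library, the genes with the most similar pattern of log2(CPM + 1) to each member were ranked among 18389 genes by Pearson correlation, which describes these sums, since they share libraries and classes. CXCL10 was most like CXCL11 (r = 0.84), IDO1 (0.81), LCAT (0.79), KCNE3 (0.76) and CFB (0.76). CXCL11 was most like IDO1 (0.86), CXCL10, APOL4 (0.83), CXCL9 (0.82) and CD5L (0.81). CXCL9 was most like SUCNR1 (0.93), APOC2, LILRB3, CSTA and LILRB4 (0.88 to 0.90). CXCR3 was most like SLAMF6, CLEC2D, CD3D, ACAP1 and SIT1 (all 0.98), and its own correlation with the ligands was between -0.01 and 0.09.

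Genes of the same pathway were taken from 6 lists with 105 genes, 99 of them in the files. They were tested in each class between the NHP2 groups with edgeR's quasi-likelihood test on summed counts, adjusted over all genes. The lists were chosen with earlier results of these data known. Their share of calls beside that of all genes is thus a description. In Müller glia-like cells of the mScarlet blebs 3 of the 41 tested list genes rose and 0 fell, where 0.351% of all 12821 tested genes were called, 0.257% higher and 0.0936% lower. GBP3, an interferon-induced guanylate-binding protein, had 8.98 and 4.94 CPM in the right and left uninjected areas, 52.3 and 38.0 CPM in the hRPGR blebs, and 153 and 222 CPM in the mScarlet blebs. Its groups did not overlap, and it rose by 4.74 ± 0.35 on the log2 scale with mScarlet (SE, edgeR adjusted p = 0.0145). IDO1, which degrades tryptophan, had 0.641 and 1.72 CPM, 22.4 and 11.2 CPM, and 38.7 and 77.1 CPM in the same order, and rose by 5.36 ± 0.59 (edgeR adjusted p = 0.0370). IRF1, a transcription factor induced by interferon gamma, had 23.3 and 16.3 CPM, 38.4 and 42.0 CPM, and 94.4 and 153 CPM, and rose by 2.59 ± 0.28 (edgeR adjusted p = 0.0370).

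For these 3 genes, too, the mScarlet blebs were above the hRPGR blebs and those above the uninjected areas. With the eye as a block, which the labels give, GBP3 alone was called (edgeR adjusted p = 0.0323; IDO1 and IRF1 both 0.0638). Without the left uninjected, the right hRPGR or the left hRPGR library 1 list gene was called, GBP3, without the left mScarlet library 0 were, and without the right uninjected library 8 were. Here and below the share of all genes called is given for the main edgeR fit only. Counts under other settings have no such background and cannot be read as particular to the lists. In the hRPGR blebs edgeR called 0 of the 41 list genes at a background of 0.0078% of all genes called, although 4 had an unadjusted p under 0.05, all higher, and DESeq2 called 2. The values of GBP3 and IDO1 there were log2 differences of 2.74 ± 0.34 and 3.63 ± 0.64 (edgeR adjusted p = 0.403 and 0.658).

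Among the other interferon-induced genes, MX1, ISG15 and IFIT1 had their lowest levels in the mScarlet bleb in the right eye and their highest there in the left eye. In Müller glia-like cells MX1, an antiviral GTPase, had 3283 CPM outside the blebs of the right eye and 31.1 CPM outside those of the left, against 3104 and 143 CPM in the hRPGR blebs and 1077 and 498 CPM in the mScarlet blebs. ISG15, a ubiquitin-like modifier, had 1790 and 105 CPM, 1752 and 190 CPM, and 812 and 410 CPM, and IFIT1, which binds viral RNA, had a like pattern with 1913 CPM in the right uninjected area. In the left eye IFIT1 had 170 CPM outside, 359 CPM with hRPGR and 656 CPM with mScarlet. The cluster mix of this class also differed between the left-eye areas. Clusters 19 and 23 held 9.36% and 0.244% of it outside, 23.3% and 12.1% with hRPGR, and 54.4% and 43.6% with mScarlet. The part of this mix in the levels was not tested. The right uninjected area had the highest MX1 level of the 6 libraries while it had 2 CXCL10 UMIs. The edgeR log2 differences were -1.16 ± 1.81 for MX1 and -0.72 ± 1.30 for ISG15 with mScarlet (adjusted p = 0.835 and 0.858). Of the 11 tested genes of the interferon-induced list 7 were higher and 4 lower with mScarlet, with a median log2 difference of 1.94 against 0.0022 over all 12821 genes tested. By edgeR 2 of them were called higher, IDO1 and GBP3, 5 had an unadjusted p under 0.05, all higher, and DESeq2 called 4. The interferon gamma receptor genes IFNGR1 and IFNGR2 stayed between 41.4 and 47.3 CPM and between 24.8 and 31.5 CPM in all 6 libraries.

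**Figure D4:**
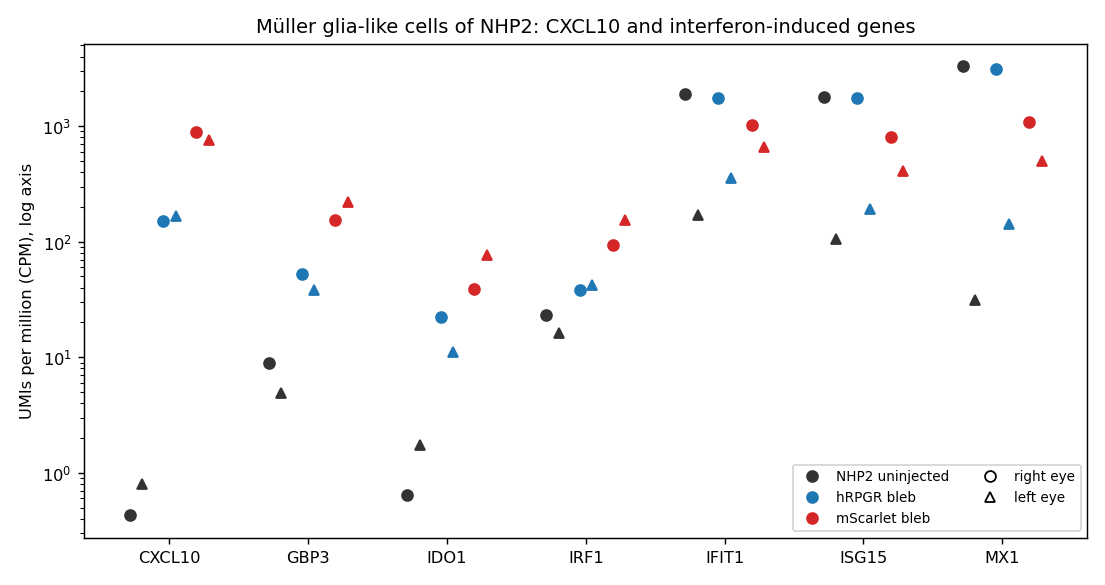
CPM (vertical logarithmic axis) of CXCL10 and 6 interferon-pathway genes in Müller glia-like cells; each point is 1 NHP2 library, coloured by area, with circles for right and triangles for left eyes. CXCL10, GBP3, IDO1 and IRF1 rank by area, whereas IFIT1, ISG15 and MX1 are high in the right uninjected area, MX1 at 3283 CPM.

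In myeloid-like cells of the mScarlet blebs 3 of the 61 tested list genes rose and 4 fell (edgeR), where 2.82% of all 10749 genes were called, 1.09% higher and 1.73% lower. The make-up of the class differed as well. Cells with a homeostatic microglia UMI were 62 of 84 and 55 of 81 outside, and 248 of 489 and 205 of 433 with mScarlet. The part of this shift in the gene differences was not tested. IDO1 had 27.1 and 168 CPM in the uninjected areas and 463 and 583 CPM in the mScarlet blebs, a rise of 2.53 ± 0.55 (edgeR adjusted p = 0.0488). The IDO1 call was kept with the eye as a block (edgeR adjusted p = 0.0151) and without the left uninjected library (0.0273), and it was lost without TMM scaling (0.0642), with doublet-score cells kept (0.107), and without any 1 of the other 5 libraries (0.0666 to 0.165). PTPN2, a phosphatase that restrains cytokine signalling, rose by 1.34 ± 0.24 (edgeR adjusted p = 0.0253) and ITGA4, an integrin of migrating leukocytes, by 1.61 ± 0.31 (0.0329). The inflammatory genes TNF and CXCL8 fell by 3.28 ± 0.60 and 2.24 ± 0.41 (edgeR adjusted p = 0.0290 and 0.0277), TNF from 720 and 879 CPM to 82.0 and 75 CPM. CCR6, a chemokine receptor, and CD8A, a T cell marker, fell by 2.06 ± 0.45 and 2.36 ± 0.43 (edgeR adjusted p = 0.0493 and 0.0282) at levels of at most 47.0 CPM. With doublet-score cells kept, without the right uninjected library or without the left mScarlet library 0 of the list genes were called, and 3 were without the left uninjected or the right mScarlet library. With hRPGR edgeR called 0 of the 61, and 0 of all 10749 genes, while 5 list genes had an unadjusted p under 0.05 in each direction and DESeq2 called 1; with the eye as a block edgeR called 1.

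In T/NK-like cells 1 of the 62 tested list genes rose with mScarlet and 0 fell (edgeR), where 0.0161% of all 6194 genes were called higher and none lower. It was CXCL13, the ligand of CXCR5 that guides B cells, with no UMI in either uninjected area, 286 and 167 CPM in the hRPGR blebs, and 273 and 327 CPM in the mScarlet blebs. Against a floor of 3 counts over both uninjected areas its pooled level was at least 20.9-fold higher with hRPGR and at least 25.8-fold higher with mScarlet, and the edgeR adjusted p for mScarlet was 0.0488. The CXCL13 call was lost with the eye as a block (edgeR adjusted p = 0.0534), without TMM scaling (0.0529), with doublet-score cells kept (0.0939), without the left uninjected library (0.141) and without the right hRPGR library (0.0642), and 9 list genes were called without the right uninjected library. With hRPGR edgeR called 0 of the 62 (4 higher and 5 lower at an unadjusted p under 0.05), and DESeq2 and edgeR with the eye as a block each called 1. IFNG, which encodes interferon gamma, was a T/NK-like gene, with 208 of its 213 bleb UMIs in this class. It had 11.5 and 18.2 CPM outside, 33.2 and 29.4 CPM in the hRPGR blebs, and 61.8 and 44.0 CPM in the mScarlet blebs, which was not called (edgeR log2 difference 1.70 ± 0.58 with mScarlet, adjusted p = 0.269). TBX21, the factor of type 1 T cells, was too low to be tested, and 60.5% of its 177 bleb UMIs were in T/NK-like cells.

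Of the genes that act on these ligands, DPP4 and ACKR1 were found mostly outside the myeloid-like and T/NK-like classes. DPP4, a protease that trims these ligands, was mainly a cone-like gene in the blebs (88.7% of 2572 UMIs, 128 CPM), and ACKR1, a receptor that binds chemokines without signalling, was found most in bipolar-like cells (45.7% of 2104 UMIs). CCL5, which attracts T cells, came from myeloid-like cells (60.2% of 9053 UMIs) and T/NK-like cells (36.2%). CXCR6, a receptor of tissue T cells, was 73.5% T/NK-like. CCL5 and CXCR6 were not called in T/NK-like cells with either vector, at edgeR adjusted p-values of 0.333 and 0.849 for mScarlet and 0.995 for both with hRPGR.

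The genes that went with CXCL10 inside the blebs were then sought within each library. Thinned Müller glia-like cells with a CXCL10 UMI (28, 28, 44 and 114 in the right and left hRPGR and right and left mScarlet blebs) were set against those without, with the library as a block. The p-values of this and the like comparisons below rest on many cells and UMIs summed in 4 libraries of 1 animal. Their size does not measure replication over areas or animals. Of 8795 genes edgeR called 1.94%, 124 higher (1.41%) and 47 lower (0.534%), of which 113 and 41 had the same direction in all 4 libraries. Of the 11 tested interferon-induced list genes 10 rose, namely IDO1, WARS1, CD274, PSMB9, GBP3, ISG15, IFIT1, IFIT3, MX1 and BST2. STAT2 and IRF1 were among the genes of the interferon gamma signal that rose.

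GBP3 had 667, 571, 1106 and 731 CPM in CXCL10-positive and 11.4, 10.8, 19.2 and 55.1 CPM in CXCL10-negative cells of these libraries, higher by 4.81 ± 0.21 on the log2 scale (SE, edgeR adjusted p = 4.9e-114). IDO1 (5.01 ± 0.34), SOD2, a mitochondrial superoxide dismutase (3.57 ± 0.17), IRF1 (3.56 ± 0.21), CHI3L1, a secreted glycoprotein of inflamed tissue (3.59 ± 0.22), WARS1, a tryptophan tRNA ligase (3.28 ± 0.21) and the apolipoprotein APOL2 (3.64 ± 0.24) rose by over 3 log2 units. PLA2G4C, PSMB8 and ENSMMUG00000061959, which has no symbol, rose by 2.68 ± 0.18, 2.53 ± 0.17 and 2.37 ± 0.16, and PSMB8 and PSMB9 lie in the MHC region, where similar genes could share UMIs. The early response gene DUSP1 (-1.08 ± 0.20), NPPC, a natriuretic peptide (-3.34 ± 0.69), the oxidoreductase AKR1C1 (-0.81 ± 0.17), the rod gene GNAT1 (-1.17 ± 0.25) and MGARP (-0.76 ± 0.17) fell. All 15 were called at edgeR adjusted p-values of at most 0.000749. Restricting the cells to clusters 19 and 23, an alternative added after the data had been seen, left GBP3 at 4.60, with 134 genes higher and 49 lower.

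Myeloid-like cells with a UMI of any ligand (41, 11, 111 and 124 in the same libraries) differed from the others in 123 of 4077 genes (3.02%, edgeR), 55 higher (1.35%) and 68 lower (1.67%). IDO1 (2.56 ± 0.20), GBP3 (1.47 ± 0.17), SOD2 (1.30 ± 0.17), the NF-kB inhibitor NFKBIA (1.22 ± 0.17), the proteasome activator PSME2 (1.26 ± 0.18) and the costimulatory receptor CD40 (2.32 ± 0.34) rose. DUSP2, ANKRD24, the succinate receptor SUCNR1 and CCL5 rose by 2.32 ± 0.35, 1.99 ± 0.31, 2.01 ± 0.34 and 1.12 ± 0.19. Of the lists IRF1 and IRF8, IDO1, WARS1, PSMB9 and GBP3, and CCL5 and CCL8 rose, and GNB1 and GZMB fell. The leading lowered genes were the photoreceptor genes ROM1 (-1.83 ± 0.20), RBP3 (-1.73 ± 0.19) and PDE6G (-1.71 ± 0.19), with GAS7 (-1.25 ± 0.16). ROM1 in ligand-positive against ligand-negative cells was 683 and 1083 CPM, 242 and 1070 CPM, 90.1 and 381 CPM, and 96.8 and 652 CPM, so this rod RNA was lower in the ligand-positive cells of every library; its part in the other differences was not tested. All 14 of these leading genes were called at edgeR adjusted p-values of at most 7.3e-07.

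**Figure D5:**
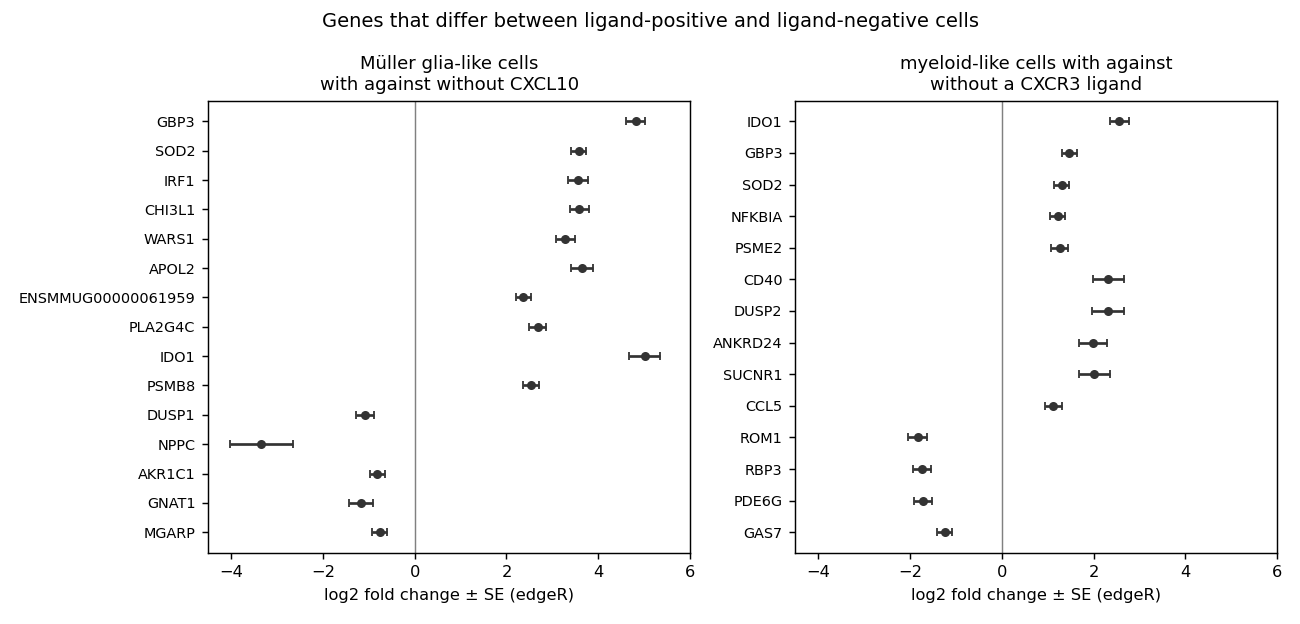
Log2 fold change with its SE (horizontal axis, edgeR, 4 bleb libraries) of the 10 leading higher and the leading lower genes shown between Müller glia-like cells with and without CXCL10 (left) and myeloid-like cells with and without a ligand (right). IDO1 and GBP3 were higher in both classes, at 5.01 and 4.81 in Müller glia-like and 2.56 and 1.47 in myeloid-like cells.

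CXCR3-positive T/NK-like cells (32, 12, 70 and 142) were set against CXCR3-negative ones. Of 2667 genes edgeR called 0 higher and 1 lower (0.0375%), and this gene did not change in the same direction in all 4 libraries. With doublet-score cells kept the counts were 9 higher and 35 lower. At an unadjusted p under 0.05 there were 144 genes, and DESeq2 called 0. None of the 21 tested type 1 T cell genes was called, and their median log2 difference was 0.01 against -0.01 over all genes. Thinned shares of 28.9% to 34.3% in the blebs against unthinned shares of 56.6% to 62.9% show that many cells counted as negative had a CXCR3 UMI before thinning.

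The 10 genes beside the ligands, up to 5 on each side, were taken to see whether the interval as a whole moved. FAM47E is not among the features, and STBD1 and ART3 were too low. The 7 others (SCARB2, NUP54, SDAD1, NAAA, PPEF2, USO1 and G3BP2) were tested in Müller glia-like and myeloid-like cells, and edgeR and DESeq2 called 0 of them with either vector, while with mScarlet 1 was higher and 1 lower at an unadjusted p under 0.05 in each class. Of all genes edgeR called 0.351% (mScarlet) and 0.0078% (hRPGR) in Müller glia-like cells, and 2.82% and 0% in myeloid-like cells. For 7 genes 0 calls lie near these shares, so the count cannot tell whether the interval moved. SDAD1, which lies 9875 bases after CXCL9, had 25.2 and 26.8 CPM in the uninjected areas and 22.1 and 19.8 CPM in the mScarlet blebs in Müller glia-like cells (log2 difference -0.39 ± 0.12, edgeR adjusted p = 0.238). SCARB2, on the other side, had 146 and 116 CPM against 170 and 180 CPM (0.35 ± 0.14, edgeR adjusted p = 0.334).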

How the data were processed

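Counts of UMIs per gene and barcode were deposited by the authors for each of 8 libraries, made with Cell Ranger 8.0.1 on Mmul_10 per the labels and not normalized. Cells were barcodes with no fewer than 1500 UMIs and 300 genes and with mitochondrial RNA of 20% or less (91796), and the 8604 with the highest doublet scores (0.8% per 1000 cells, since the automatic caller marked few) were removed. Cells were clustered with scanpy 1.11.5 (3000 variable genes, 40 components, 15 neighbours, Leiden resolution 2), giving 62 clusters, of which 37 were named from marker lists and 25 (25.6% of cells) stayed unnamed. The naming rule was set after the clusters had been seen. Libraries shared 1.39% to 2.16% of the smaller library's cell barcodes. Counts were summed per class and library (at least 10 cells) and tested with edgeR 4.0.16 in R 4.3.3 (TMM, filterByExpr, quasi-likelihood, Benjamini-Hochberg over all genes, adjusted p under 0.05), with DESeq2 1.42.0 as an alternative, after a check on simulated data. Named genes were the list genes called, and the 10 higher and 5 lower genes with the smallest p in each comparison of cells with and without a member. The members and lists were chosen with earlier results of these data known. Same-numbered NHP2 libraries came from the same eye per the labels, which is where the pairing comes from, and correlations of their deviations were -0.12 to 0.12. The files gave symbols for 16678 features and a gene table for 521 more, while 9334 have an identifier only. Some items the naming rule selects are not reported here, while counts cover all genes tested.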

Additional observations from a re-analysis of the deposited data

Results flagged for a closer look

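The CXCL10 level of myeloid-like cells lay below the uninjected area in both hRPGR blebs and above it in both mScarlet blebs. Against the uninjected area of the same eye it was -169 CPM in the right and -152 CPM in the left hRPGR bleb, and 33.8 CPM and 131 CPM in the right and left mScarlet blebs. In the left uninjected area 1 cell held 77 of the 110 UMIs, so both left-eye differences rest largely on that cell. The order did not hold in every subset of these cells: in cluster 33 of the right eye the uninjected area had 321 CPM and the mScarlet bleb 288 CPM. Among left-eye cells without a homeostatic microglia UMI the uninjected area had 509 CPM and the mScarlet bleb 433 CPM. The 509 CPM came from 26 cells, and 1 of them held 77 of the 78 UMIs. The hRPGR blebs were also near the uninjected area in some subsets, with 76.8 against 77.6 CPM in right-eye cells without a homeostatic UMI, 85.1 against 88.1 CPM in left-eye cells with one, and 40.7 against 41.8 CPM in cluster 44 of the left eye. Among cells with a homeostatic UMI and none of other myeloid genes such as CD14 or LYZ the direction turned. The right and left hRPGR blebs had 35.3 and 236 CPM there, in 24 and 9 cells. These were 5 and 12 UMIs, and after thinning 1 cell of each bleb was positive. The uninjected areas had 0 CPM, in only 5 and 10 cells, so this turn rests on very few cells. The difference between the vectors was not tested, and both are set against the same uninjected libraries.

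Ligand UMIs were also found in barcodes of 100 to 1000 UMIs, which are too shallow to count as cells and were used only as a background. In the order right hRPGR, left hRPGR, right mScarlet and left mScarlet bleb, CXCL10 there had 10.7, 13.5, 14.9 and 82.0 CPM, against 1.11 and 1.40 CPM in the uninjected areas. CXCL11 had 1.44, 1.19, 2.71 and 7.27 CPM, and CXCL9 had 0.690, 0.354, 1.04 and 3.20 CPM, all above the uninjected areas.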

How the results depend on the processing

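Depth limited the shares: 1500 UMIs a cell leave many positive cells without a UMI. Counts of list genes called moved as follows. The share of all genes called under each setting is not given, so a moved count cannot be read as particular to the lists. In Müller glia-like cells with mScarlet 3 became 7 with DESeq2, 7 with no filter, 1 with the eye as a replicate block and 0 to 8 with a library left out, and with hRPGR 0 became 2 with DESeq2 and 1 with no filter. In myeloid-like cells with mScarlet 7 became 18 with DESeq2, 31 with no filter, 0 with doublet-score cells kept and 0 to 5 with a library left out, and with hRPGR 0 became 1 with DESeq2, 8 with no filter, 1 with the block and 0 to 1. In T/NK-like cells with mScarlet 1 became 0 without TMM, 13 with no filter, 0 with the block, 0 with doublet-score cells and 0 to 9, and with hRPGR 0 became 1 with DESeq2, 2 with no filter, 1 with the block and 0 to 1. Genes that went with CXCL10 in Müller glia-like cells (124 higher, 47 lower) became 398 and 91 without thinning, 6 lower with DESeq2, 75 lower with no filter, and 90 to 112 higher and 15 to 33 lower with a library left out. Those that went with a ligand in myeloid-like cells (55 and 68) became 23 and 16 with DESeq2, 28 higher with no filter, 347 and 242 without thinning, and 20 to 55 and 18 to 66 with a library left out, 20 higher without the right mScarlet, 34 without the left hRPGR and 31 without the left mScarlet library. List genes among them (9 higher) became 4 with DESeq2, 19 without thinning and 3 to 7. For CXCR3 (0 higher, 1 lower) the counts became 9 and 35 with doublet-score cells, 0 lower with DESeq2 and without thinning, 2 lower with no filter and 0 to 1 in each direction. Mean shares changed with depth and class rule. CXCL10 in Müller glia-like cells was 0.154%, 3.15% and 9.36% (uninjected, hRPGR, mScarlet), the first 0.266% unthinned, 0.107% thinned to 3000 UMIs, 0.107% in cells of at least 3000 UMIs, 0.170% with doublet-score cells, 0.116% with classes by marker score and 0.144% to 0.163% by library, the second 4.95%, 4.09% thinned to 3000, 2.37% by marker score and 2.76% to 3.54%, and the third 6.24% to 12.5% by library. CXCL10 in myeloid-like cells (12.7%, 6.83%, 18.4%) became 18.7%, 15.8% and 35.4% unthinned, 19.5%, 10.6% and 23.2% thinned to 3000, 5.22% and 16.9% by marker score for hRPGR and mScarlet, 16.6% for mScarlet in cells of at least 3000 UMIs, and 8.64% to 16.7%, 5.71% to 7.95% and 17.6% to 19.2% by library. CXCR3 in T/NK-like cells (31.0%, 32.2%, 30.8%) became 56.4%, 59.7% and 62.4% unthinned, 7.56%, 9.63% and 23% by marker score, 39.9% and 47.1% thinned to 3000 for hRPGR and mScarlet, and 16.2% to 45.8%, 30.2% to 34.3% and 28.9% to 32.7% by library. The cause of these moves was not tested. Reversed log2 differences, none of which had been called, were as follows, with the range over libraries left out. In Müller glia-like cells with mScarlet IFNGR1 was -0.018 to 0.075 (lowest without the left uninjected library). With hRPGR there IFNGR1 was -0.095 to 0.013 (highest without the right hRPGR library). In myeloid-like cells IRF1 with mScarlet was -0.26 to 0.93 (-0.26 without the right uninjected, -0.086 without the left mScarlet library), and IFNGR2 with hRPGR -0.13 to 0.13 (0.13 without the right uninjected, 0.077 without the right hRPGR library), 0.026 without TMM and 0.017 with no filter. In T/NK-like cells with mScarlet CXCR6 was -0.38 to 0.99 (lowest without the left uninjected library), and IRF1 -0.32 to 0.38 (0.38, 0.036 and 0.076 without the right uninjected, left hRPGR and left mScarlet libraries) and 0.14 with no filter. With hRPGR CCL5 was -0.66 to 0.65 and CXCR6 -0.79 to 0.56 (0.061 and 0.17 without the right hRPGR library), with DPP4 at -0.42 to 0.078 and IRF1 -0.52 to 0.17.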

Other observations

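Cluster 49, unnamed and led by CD74, MAMU-DRA and MAMU-DRB1 with the B cell marker MS4A1, held both sides of the axis in the mScarlet blebs, with CXCL10 at 99.8 ± 90.3 CPM, CXCL11 at 24.7 ± 5.37 CPM and CXCR3 at 61.9 ± 32.2 CPM (SD, n = 2), and 14.4% of its barcodes had high doublet scores. Cluster 53, unnamed and led by TAGLN, RGS5 and ACTA2, had CXCL10 at 114 ± 162 CPM and no CXCR3 UMI there.

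CXCL13, called in T/NK-like cells with mScarlet, also had 84.2 CPM in myeloid-like cells of the left mScarlet bleb and at most 1.83 CPM in those of the other NHP2 areas.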
